A study of Mus musculus with 6 samples.

Results

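The mouse genes described here are the Zfp900-series zinc finger genes, taken as every row of the deposited tables whose symbol is Zfp9 followed by a pair of further digits. The rule found 64 genes among 53927 symbols, with numbers from Zfp930 to Zfp995. It rests on symbols alone, but members and lists were chosen with earlier results of these data known. GENCODE M21 on GRCm38 lists 63 of them as protein-coding and Zfp939 as a transcribed pseudogene. They lie on 12 chromosomes, and 0 of them are on the X or Y chromosome. Of the 64, 62 passed the filter on low counts. Zfp969 had 0 counts in every library and Zfp957 had 5 counts over the 6 libraries, so neither was tested. Zfp969 shares its transcript sequence with other copies, as given below, so its counts do not settle whether it was expressed.

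Most proteins with such symbols pair a KRAB domain with an array of C2H2 zinc fingers. The fingers read DNA sequence, often within retrotransposons, and the KRAB domain recruits the corepressor encoded by Trim28, which brings in the histone methyltransferase encoded by Setdb1 and leads to H3K9 methylated, silent chromatin. The genes multiply by local duplication, so that near-identical copies sit side by side in clusters, and many of them are read in embryonic stem cells (ESCs).

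RNA of wild-type mouse ESCs was sequenced after ribosomal RNA depletion, with 3 libraries per medium. Both media were N2B27, a serum-free base, with the MEK inhibitor PD0325901 at 1 µM, and they differed in the second inhibitor. The first group, BRD0705/PD03, had BRD0705 at 8 µM, a compound selective for the alpha form of the kinase GSK3, and the second group, 2i, had CHIR99021 at 3 µM, which blocks the alpha and beta forms. The cell line field of the labels says E14, whereas the growth protocol speaks of B6D2F1 cells that were derived and grown on feeders in each medium and also of gelatin-coated dishes, and these labels do not settle which cells were used or whether the groups are of 1 line. Any difference of line or sex between the groups cannot be told apart from the medium. X-linked genes were 106 higher and 473 lower in BRD0705/PD03 of 717 tested (median log2 fold change -0.78). The part of line or sex in the values of the members was not tested. Nothing says that the libraries of a group came from separate cultures, so p-values reflect variation among these particular libraries, part of which may be technical. Totals ran from 16968959 to 51180228 counts per library, and the pluripotency genes Pou5f1 (687 ± 6.29 against 765 ± 54.9 CPM) and Sox2 (289 ± 7.64 against 300.4 ± 14.8 CPM), whose products define ESCs, were detected in every library. Of 10 ESC markers, 5 were lower in BRD0705/PD03, among them Tfcp2l1 (log2 fold change -1.63), Klf4 (-1.26), Nanog (-0.95) and Pou5f1 (-0.16), and 4 were higher, among them Utf1 (1.41) and Zfp42 (1.15). The list summed to 3159 ± 111 against 4431 ± 56.3 CPM, and its part in the values of the members was not tested.

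Values are CPM, counts per 1000000 on effective library sizes, given as mean ± SD with n = 3 libraries per group and with BRD0705/PD03 first. Each fold change is a log2 ratio, BRD0705/PD03 to 2i, ± its standard error, from edgeR's quasi-likelihood test, and a gene is called higher or lower where its p, adjusted by Benjamini-Hochberg over 20422 genes, is under 0.05. In bulk RNA, fewer cells that express a gene and less of its RNA per cell cannot be told apart.

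By position, 43 of the 64 genes fell into 5 clusters of at least 3 members each, where neighbours are at most 1 Mb apart. The chromosome 4 cluster (145510759 to 147848366) holds 16 members, the chromosome 2 cluster (175372436 to 178078476) 10, the chromosome 17 cluster (21567008 to 22867134) 10, the chromosome 7 cluster (42579783 to 43192109) 4 and the chromosome 8 cluster (69209038 to 69749970) 3. The other 21 genes lie outside these clusters. The clusters were defined after values had been seen.

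Start regions of many copies on chromosomes 2, 4 and 7 resemble one another, and those of 8 members from 3 clusters are shown because members with much the same start region had different fold changes. RefSeq on GRCm38.p6 gave a promoter, 250 bases before the start site and 50 after it, for 54 of the 64 genes. In 4 of these (Zfp935, Zfp936, Zfp981 and Zfp993) the RefSeq start lies over 1000 bases from the start of the GENCODE gene. On chromosome 4 only 10 of the 16 cluster members had a promoter. Zfp978, Zfp986, Zfp989, Zfp990, Zfp991 and Zfp992 had none, so what is said of start regions there leaves them out. The first 4 sequences are from chromosome 4: Zfp979 (chr4:147642459-147642758, minus strand), Zfp980 (chr4:145670447-145670746, plus strand), Zfp982 (chr4:147492167-147492466, plus strand) and Zfp988 (chr4:147305354-147305653, plus strand). Capitals mark bases that a pairwise alignment did not match to an identical base of Zfp979.
Zfp979: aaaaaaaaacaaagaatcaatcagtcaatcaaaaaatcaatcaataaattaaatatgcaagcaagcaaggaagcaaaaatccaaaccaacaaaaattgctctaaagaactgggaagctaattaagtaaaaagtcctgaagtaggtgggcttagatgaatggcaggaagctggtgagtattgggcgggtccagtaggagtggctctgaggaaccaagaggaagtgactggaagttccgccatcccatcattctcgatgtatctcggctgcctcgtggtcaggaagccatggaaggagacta
Zfp980: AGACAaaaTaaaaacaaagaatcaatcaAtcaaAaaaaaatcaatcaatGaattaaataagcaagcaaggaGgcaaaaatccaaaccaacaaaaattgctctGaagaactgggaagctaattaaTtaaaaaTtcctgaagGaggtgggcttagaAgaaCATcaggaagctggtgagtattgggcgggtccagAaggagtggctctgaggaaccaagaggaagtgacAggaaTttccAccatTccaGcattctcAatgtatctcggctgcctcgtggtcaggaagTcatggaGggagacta
Zfp982: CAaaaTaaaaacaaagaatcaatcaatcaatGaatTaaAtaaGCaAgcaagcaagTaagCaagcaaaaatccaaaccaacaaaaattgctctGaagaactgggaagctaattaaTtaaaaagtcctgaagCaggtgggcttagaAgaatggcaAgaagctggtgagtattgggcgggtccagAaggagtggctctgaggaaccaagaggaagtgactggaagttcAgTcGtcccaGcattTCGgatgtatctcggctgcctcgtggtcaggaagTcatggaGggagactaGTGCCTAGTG
Zfp988: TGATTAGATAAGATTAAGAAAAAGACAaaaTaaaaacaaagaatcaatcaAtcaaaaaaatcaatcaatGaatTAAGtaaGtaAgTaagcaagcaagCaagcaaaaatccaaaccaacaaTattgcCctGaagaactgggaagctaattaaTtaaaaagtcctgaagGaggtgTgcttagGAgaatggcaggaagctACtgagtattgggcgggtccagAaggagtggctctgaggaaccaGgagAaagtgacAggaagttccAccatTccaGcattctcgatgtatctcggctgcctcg
Of 300 bases, 273 of Zfp980, 264 of Zfp982 and 245 of Zfp988 matched Zfp979. On chromosome 2 the window of Zfp966 (chr2:175931051-175931350, minus strand) equals that of Zfp967 (chr2:176520754-176521053, plus strand) at 300 of 300 bases, so it is printed once.
Zfp966: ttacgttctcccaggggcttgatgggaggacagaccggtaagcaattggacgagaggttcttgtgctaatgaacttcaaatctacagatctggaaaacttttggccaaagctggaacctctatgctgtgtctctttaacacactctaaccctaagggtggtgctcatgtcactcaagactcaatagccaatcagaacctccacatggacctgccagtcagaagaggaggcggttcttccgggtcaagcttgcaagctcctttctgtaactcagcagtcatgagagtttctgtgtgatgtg
From chromosome 7 come Zfp976 (chr7:42642555-42642854, minus strand) and Zfp977 (chr7:42592496-42592795, minus strand), with capitals for the bases of Zfp977 that did not match Zfp976.
Zfp976: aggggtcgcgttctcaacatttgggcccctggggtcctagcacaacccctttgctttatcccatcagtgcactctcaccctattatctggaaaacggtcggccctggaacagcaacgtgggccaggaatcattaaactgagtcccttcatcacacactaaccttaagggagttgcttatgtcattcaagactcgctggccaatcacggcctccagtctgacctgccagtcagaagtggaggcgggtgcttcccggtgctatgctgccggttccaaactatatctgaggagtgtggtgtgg
Zfp977: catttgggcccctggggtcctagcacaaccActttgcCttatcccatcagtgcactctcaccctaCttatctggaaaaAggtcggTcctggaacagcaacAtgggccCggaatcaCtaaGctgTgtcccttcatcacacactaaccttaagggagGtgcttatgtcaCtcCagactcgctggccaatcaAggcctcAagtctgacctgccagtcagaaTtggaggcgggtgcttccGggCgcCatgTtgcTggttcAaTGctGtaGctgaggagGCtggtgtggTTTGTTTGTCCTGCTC
Between Zfp976 and Zfp977, 256 bases matched.

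The 62 tested genes moved in both directions, and their summed level overlapped between the media. In BRD0705/PD03, 20 were higher and 26 lower, 74.2% of the tested members, while 61.4% of all genes tested were called, 30.1% as higher and 31.4% as lower. Every tested member had a mean of at least 1.49 CPM, whereas the genes tested include sparser ones. With a filter at a mean of at least 1 CPM, 11041 of 16044 genes were called, and 46 of 62 members. Among Zfp genes outside the series, 69.9% of those tested were called in the main fit. Of the tested members, 4 (6.45%) were called and moved 2-fold or more, against 21.2% of all genes. The median log2 fold change was -0.11 with quartiles of -0.49 and 0.29, and over all genes tested it was 0.00030 with quartiles of -0.40 and 0.41. The groups did not overlap for 47 members, 75.8% of those tested, beside 66% of all genes and 73.9% of the Zfp genes outside the series. Summed over all 64 genes, the libraries stood at 3398, 3634 and 3524 CPM in BRD0705/PD03 and at 3520, 3494 and 3578 CPM in 2i. These sums overlap between the groups (exact two-sided permutation test, p = 1.0, n = 3 against 3).

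What differed was which members made up that sum. The chromosome 4 cluster gave 67.9% ± 0.481 of the members' counts in BRD0705/PD03 and 52.7% ± 0.722 in 2i. Its summed level was 2302, 2485 and 2377 CPM in BRD0705/PD03 and 1859, 1862 and 1856 CPM in 2i. The summed level of the chromosome 7 members was 129, 136 and 129 CPM against 229, 237 and 246 CPM, and that of the chromosome 2 members was 138, 145 and 149 CPM against 193, 189 and 197 CPM. Members outside the clusters summed to 570 ± 20.1 against 973 ± 27.1 CPM, and Zfp934 alone went from 13.6% of the members' counts in 2i to 3.98% in BRD0705/PD03. The summed chromosome 17 level was 234 ± 2.96 against 226 ± 8.27 CPM, with overlapping groups (exact permutation test, p = 0.3, n = 3 against 3). For the chromosome 2, 4, 7 and 8 sums and for members outside the clusters the groups did not overlap, and the exact permutation test gave p = 0.1, the smallest that 3 against 3 libraries allow.

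**Figure D1:**
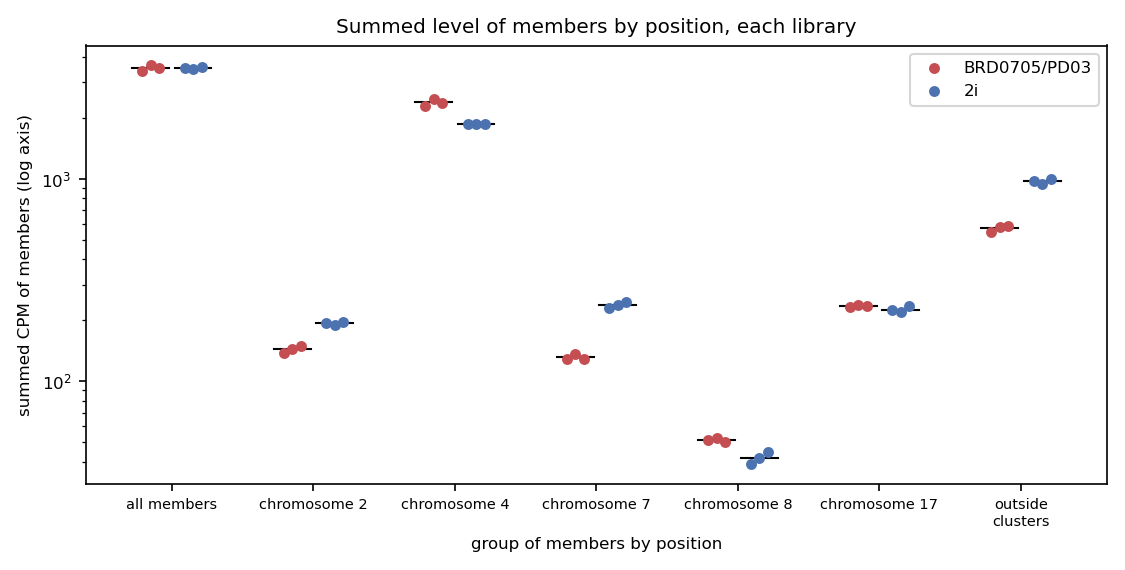
Summed CPM of the members (log axis) for all members and for each group by position. Each point is a library, red for BRD0705/PD03 and blue for 2i, and each bar is a group mean; the sum of all members overlaps between the media, the chromosome 4 sum is at least 2302 CPM in every BRD0705/PD03 library and at most 1862 CPM in every 2i library, and the chromosome 2, chromosome 7 and outside sums are lower in BRD0705/PD03.

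The chromosome 4 cluster held the members with the highest fold changes. Of its 16 tested members 10 (62.5%) were higher and 3 (18.75%) lower in BRD0705/PD03 (median 0.34), beside 30.1% and 31.4% of all genes. Zfp989 (chromosome 4, 146971976 to 146990755) stood at 69.6, 75.4 and 69.0 CPM in the BRD0705/PD03 libraries and at 20.2, 24.7 and 22.5 CPM in the 2i libraries. The lowest BRD0705/PD03 library was above the highest 2i library, and the log2 fold change was 1.65 ± 0.06 (edgeR, adjusted p = 9.6e-13). Zfp993, in the same cluster, stood at 23.9, 27.6 and 25.1 against 11.4, 12.5 and 11.01 CPM (1.12 ± 0.07), again with no overlap. These were the 2 members called higher by 2-fold or more.

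More abundant copies of this cluster were higher as well. Zfp992 stood at 234, 248 and 238 against 127.5, 126 and 133 CPM (0.90 ± 0.04), and Zfp984 at 97.2 ± 5.50 against 59.03 ± 0.918 CPM (0.72 ± 0.05). Zfp979, one of the most abundant members, stood at 316, 351 and 329 against 218, 210 and 217 CPM (0.63 ± 0.04), and Zfp981 at 204 ± 13.5 against 134 ± 2.67 CPM (0.60 ± 0.05). In each of these 4 genes the lowest BRD0705/PD03 library was above the highest 2i library. Zfp991 (0.47 ± 0.04), Zfp987 (0.40 ± 0.04), Zfp980 (0.29 ± 0.04) and Zfp978 (0.14 ± 0.04) were also higher.

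The same cluster held members that did not rise. Zfp982, which has been reported to support expression of pluripotency genes in mouse ESCs, was lower at 27.6, 29.6 and 29.75 against 41.96, 41.4 and 42.6 CPM (-0.53 ± 0.05, adjusted p = 5.0e-08 by edgeR). Its 3 BRD0705/PD03 libraries were all below its 3 2i libraries. Zfp990 (255, 279 and 272.5 against 286, 296 and 288 CPM, -0.11 ± 0.04) and Zfp986 (16.7 ± 1.28 against 19.5 ± 2.36 CPM, -0.21 ± 0.09) were called lower by small margins, and both calls were lost when single libraries were left out. Zfp990 lost it without BRD0705/PD03 replicate 1 or 3 or 2i replicate 2, and Zfp986 without BRD0705/PD03 replicate 1 or 2 or 2i replicate 1 or 2. Zfp988 (213, 227.5 and 223.5 against 226, 225 and 218.5 CPM, -0.01 ± 0.04, adjusted p = 0.803), Zfp985 (0.01 ± 0.06) and Zfp933 (0.14 ± 0.08, adjusted p = 0.126) did not pass the test. Other genes inside the cluster's span were 17 higher and 6 lower of 37 tested (median 0.44), and the 62.2% called is near the 61.4% of all genes.

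Similar start regions did not always go with the same call in this cluster. Zfp979 (0.63) and Zfp980 (0.29), with 91.0% of promoter bases identical, were both higher. Zfp987 (0.40), which shares 85.7% with Zfp979, was higher too. Zfp982 shares 88.0% of its promoter bases with Zfp979 and was lower, the only lower call among cluster members with a promoter. Zfp985, at 85.7%, and Zfp988, at 81.7%, were not called. A difference between fold changes of members was not itself tested.

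**Figure D2:**
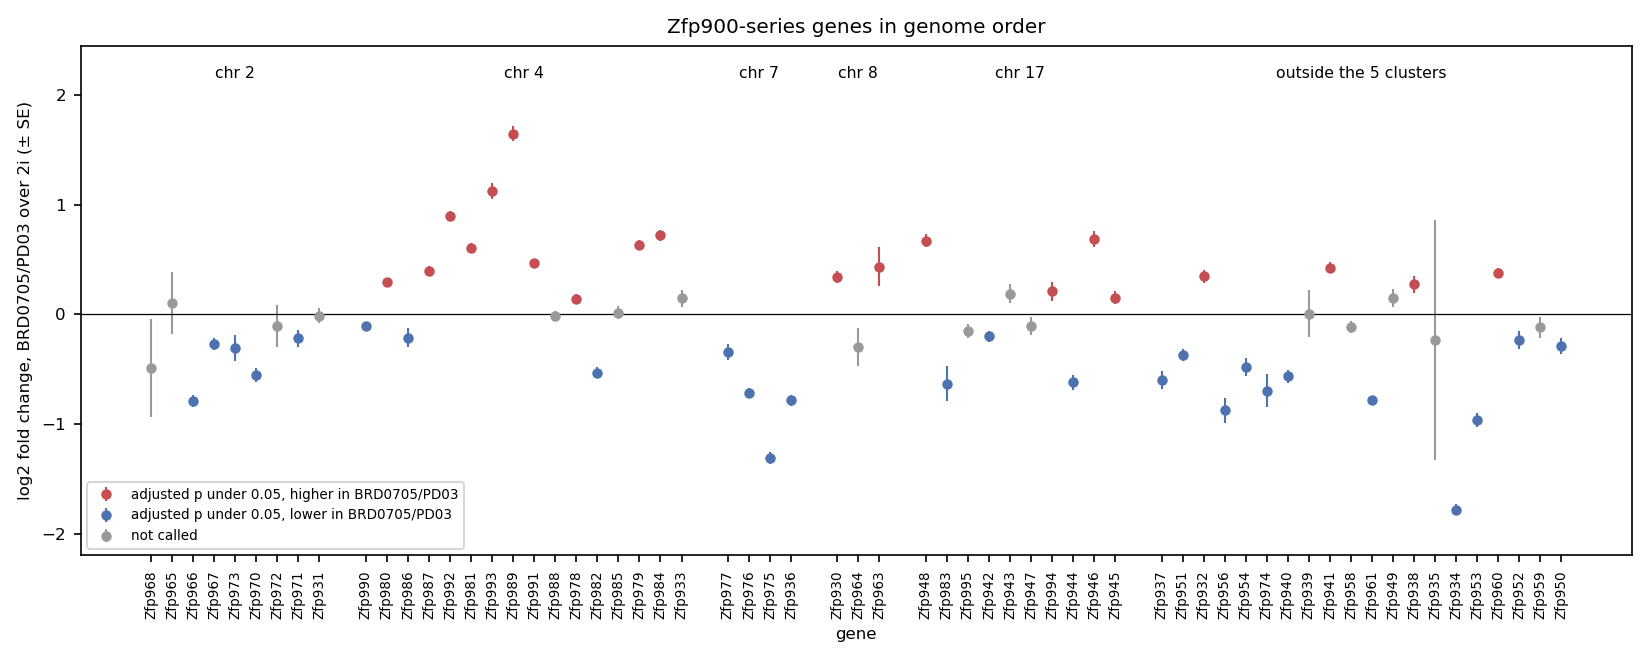
Log2 fold change of BRD0705/PD03 over 2i for each of the 62 tested members in genome order, grouped by cluster, with bars for the standard error. Red points were called higher, blue points lower and grey points not called; the chromosome 4 cluster holds 10 of the 20 red points, the chromosome 2 and 7 clusters hold no red point, and Zfp934 is the lowest at -1.78.

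On chromosome 7 all 4 cluster members were lower (median -0.75), beside 31.4% of all genes. Zfp975 (chromosome 7, 42660105 to 42692742) stood at 26.0, 27.9 and 29.0 CPM in BRD0705/PD03 and at 65.2, 69.6 and 70.3 CPM in 2i. The 2i libraries were all more than 2 times as high as any BRD0705/PD03 library, and the log2 fold change was -1.31 ± 0.05 (adjusted p = 1.4e-13 by edgeR). Zfp936 (51.2 ± 2.17 against 88.1 ± 3.88 CPM, -0.79 ± 0.05) and Zfp976 (38.5, 40.4 and 38.4 against 63.6, 62.7 and 66.7 CPM, -0.72 ± 0.05) followed. Zfp977, whose start region matches that of Zfp976 at 85.3% of bases, was lower by less (12.9, 13.95 and 12.7 against 15.96, 16.6 and 17.5 CPM, -0.34 ± 0.07). None of the 4 genes had overlapping groups. Of 7 other tested genes within this span, 3 were lower and 0 higher (median -0.53), a called share of 42.9% and so below that of all genes.

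On chromosome 2, 5 of the 9 tested cluster members were lower and 0 higher (median -0.27). The called share, 55.6%, was below the 61.4% of all genes, of which 31.4% were lower. Zfp966 stood at 35.9, 37.8 and 40.3 against 69.5, 62.7 and 66.3 CPM (-0.79 ± 0.05, edgeR adjusted p = 2.8e-10). Zfp967, whose 300-base start window has the same sequence, stood at 26.5, 27.7 and 28.6 against 33.1, 33.6 and 33.2 CPM (-0.27 ± 0.05). Both were lower without overlap, by different amounts. Zfp970 was lower too (18.05 ± 0.618 against 26.6 ± 0.891 CPM, -0.55 ± 0.06). The call of Zfp971 (-0.22 ± 0.08) was lost without BRD0705/PD03 replicate 1 or 2i replicate 2 or 3, and that of Zfp973 (-0.31 ± 0.12) without BRD0705/PD03 replicate 1 or 3 or 2i replicate 1 or 3. Zfp968, which shares 299 of 300 promoter bases with Zfp973, stood at 2.65, 0.654 and 1.72 against 2.31, 2.155 and 2.76 CPM and did not pass the test. Its groups overlapped, and without BRD0705/PD03 replicate 1 it was called lower. Of 42 other tested genes within the span, 2 were higher and 13 lower (median -0.18), with 35.7% called.

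The chromosome 17 cluster was mixed, with 4 higher and 3 lower of 10 (median 0.02), beside 30.1% and 31.4% of all genes. Zfp948 (35.8, 39.3 and 36.7 against 23.7, 23.3 and 23.2 CPM, 0.67 ± 0.06) and Zfp946 (17.4, 18.5 and 17.5 against 10.8, 10.95 and 11.4 CPM, 0.69 ± 0.07) were higher, with every BRD0705/PD03 library above every 2i library. Zfp944, which lies between them, was lower (20.2 ± 1.42 against 30.8 ± 1.54 CPM, -0.62 ± 0.07), and so were Zfp942 (-0.20 ± 0.05) and the sparse Zfp983 (2.12 ± 0.298 against 3.30 ± 0.236 CPM, -0.63 ± 0.16). Zfp942 and Zfp944 share 91.3% of promoter bases. The other higher calls were small: that of Zfp945 (0.15 ± 0.06) was lost without any 1 of the libraries other than 2i replicate 3, and that of Zfp994 (0.21 ± 0.08) without BRD0705/PD03 replicate 3 or 2i replicate 1 or 3. Both were also lost without sex-chromosome genes. On chromosome 8, Zfp930 was higher at 45.4 ± 1.36 against 35.8 ± 1.60 CPM (0.34 ± 0.05), Zfp963 was called higher near the threshold (0.43 ± 0.18, adjusted p = 0.0425 by edgeR, lost without BRD0705/PD03 replicate 1 or 3 or 2i replicate 1 or 2), and Zfp964 did not pass the test (-0.30 ± 0.18).

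Outside the clusters 11 of 20 tested members were lower and 4 higher (median -0.26), beside 31.4% and 30.1% of all genes. Zfp934 (chromosome 13, 62479827 to 62571199) had the lowest fold change of all members. It stood at 133, 142 and 145 CPM in BRD0705/PD03 and at 481, 459 and 504 CPM in 2i, where it was the most abundant member by CPM. The 2i libraries were all more than 3 times as high as any BRD0705/PD03 library, with a log2 fold change of -1.78 ± 0.05 (edgeR, adjusted p = 2.1e-16). Zfp953, also on chromosome 13, stood at 12.97, 12.9 and 13.2 against 25.9, 25.5 and 25.2 CPM (-0.97 ± 0.06). Zfp956 on chromosome 6 (5.49 ± 0.795 against 10.04 ± 0.876 CPM, -0.87 ± 0.11) and Zfp961 on chromosome 8 (68.5, 71.1 and 71.8 against 122, 122 and 120.1 CPM, -0.78 ± 0.04) were lower without overlap. The 4 higher members outside the clusters were Zfp941 (0.42 ± 0.05), Zfp960 (0.37 ± 0.05), Zfp932 (0.34 ± 0.06) and Zfp938 (0.27 ± 0.08).

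Zfp932 is known, with its paralog Gm15446, for binding retroviral elements, one of which lies near the osteocalcin-related gene Bglap3. Zfp932 stood at 36.6, 37.8 and 39.2 against 32.2, 29.5 and 28.3 CPM and Gm15446 at 31.2 ± 1.09 against 20.9 ± 0.40 CPM (0.58 ± 0.06), both higher without overlap. Bglap3 itself was lower at 1.36 ± 0.301 against 8.69 ± 1.08 CPM (-2.68 ± 0.16, edgeR adjusted p = 3.6e-11), with every BRD0705/PD03 library below every 2i library. Of the distinct 31-base words of Zfp932's transcripts 40.6% also occur in a Gm15446 transcript, so their estimated counts are not independent, and Bglap3 has near-identical neighbours. A link between the level of Bglap3 and those of Zfp932 and Gm15446 was not tested.

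**Figure D3:**
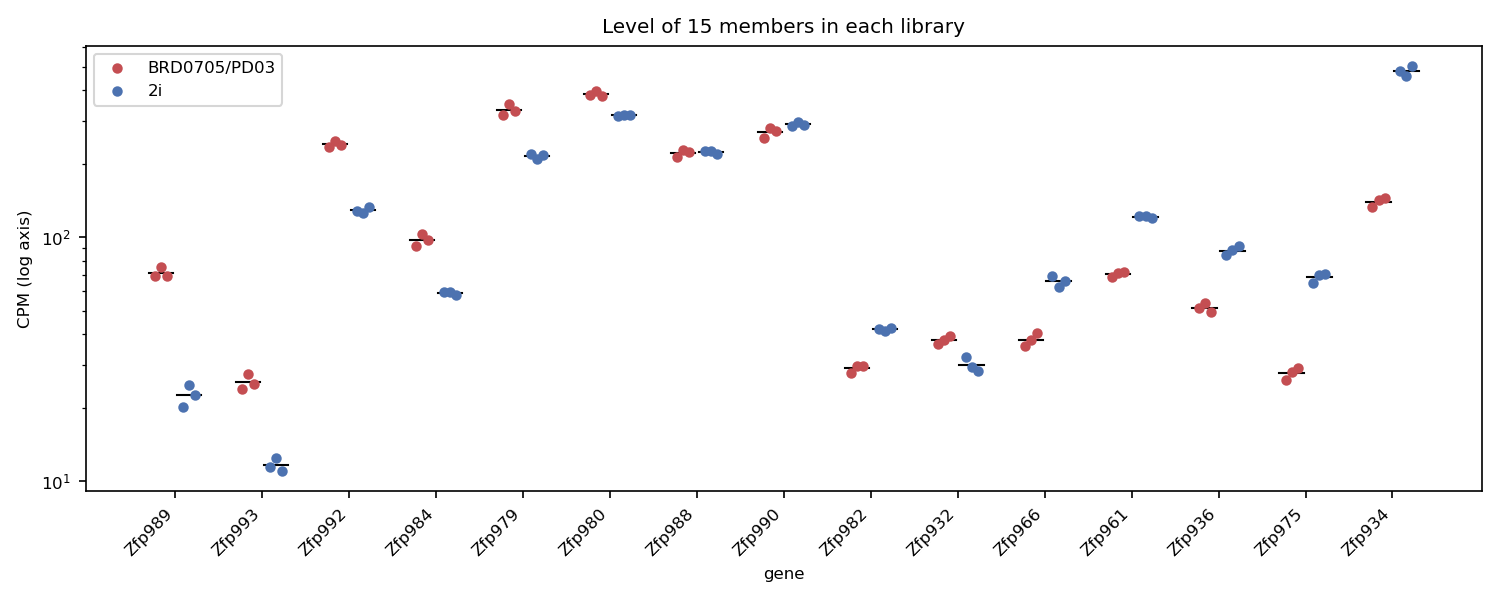
CPM (log axis) of 15 members in each of the 6 libraries, red for BRD0705/PD03 and blue for 2i, with bars for group means. From Zfp989 to Zfp980 the red points are above the blue ones, Zfp988 overlaps, and Zfp990 is slightly lower, Zfp982 is lower, Zfp932 is higher, and the genes from Zfp966 to Zfp934 are lower in BRD0705/PD03.

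Per kb of annotated exon, the chromosome 4 copies stood among the highest levels. In BRD0705/PD03 the highest were Zfp980 at 96.6, Zfp979 at 80.8, Zfp987 at 79.3, Zfp988 at 79.0 and Zfp990 at 76.9 CPM per kb. In 2i the highest were Zfp934 at 83.5, Zfp990 at 82.9, Zfp988 at 79.7 and Zfp980 at 78.8 CPM per kb, with Zfp979 at 52.3. Neighbours in this order were not tested against each other. Within groups the tested members varied little between libraries, with a median coefficient of variation of 4.99% in BRD0705/PD03 and 4.64% in 2i.

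Copies share sequence, and that limits how well their counts are separated. Over the transcripts of GENCODE M21, the median member shared 34.3% of its distinct 31-base words with transcripts of another gene, and 21 of 64 shared at least 50% of theirs. The median share was 92.2% in the chromosome 2 cluster, 74.1% on chromosome 4, 33.7% on chromosome 7 and 13.6% on chromosome 17. Zfp989 shared 79.4% of its words, Zfp993 91.9%, Zfp992 49.9%, Zfp979 32.4%, Zfp934 45.04% and Zfp975 46.2%. Zfp967 shared 100.0%, 96.5% with Zfp966, whereas Zfp966 has 2820 distinct words and Zfp967 has 1561. The part of shared sequence in the different values of that pair was not tested. Zfp969, with 0 counts in every library, also shared 100.0% of its words, 96.3% with Zfp966. Whether reads of Zfp969 were assigned to other copies was not tested.

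Members with little shared sequence also moved both ways, but none of those tested by 2-fold or more (log2 fold changes from -0.97 to 0.69). Among the 19 members under 10% of shared words, 18 were tested, of which 6 were higher and 8 lower (median -0.18). Among the 44 tested members at or above 10%, 14 were higher and 18 lower (median -0.11). All 4 members called at 2-fold or more were in this class, 2 higher and 2 lower. The called shares were 77.8% under 10% and 72.7% at or above it, beside 61.4% of all genes. Zfp946 (7.27% shared), Zfp948 (4.37%), Zfp941 (6.48%) and Zfp930 (3.21%) were higher, and Zfp953 (9.64%), Zfp961 (4.97%), Zfp956 (7.83%) and Zfp940 (2.47%, -0.57 ± 0.06) were lower. Zfp961 overlaps exons of Cyp4f18 on the opposite strand over 4.18% of its own exons, and whether counting used strand is not stated in the labels. Exons of Zfp963 overlap those of Gm20422 on the same strand over 40.8% of their length, and those of Zfp956 overlap Zfp783 over 9.77%.

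Zfp935 on chromosome 13 had the widest spread between libraries. The tables list it at 0 counts in BRD0705/PD03 replicate 1, at 114 and 220 in the other libraries of that group and at 64, 155 and 118 in 2i. Its exons lie to 98.5% within those of the gene model Gm49359, and all of its words are shared. Gm49359 stood at 17.9 CPM in the library where Zfp935 was at 0, and at 12.97 and 14.6 CPM in the other BRD0705/PD03 libraries. The 2 genes together stood at 17.9, 17.1 and 19.96 CPM in BRD0705/PD03 and at 18.99, 19.05 and 20.1 CPM in 2i, with overlapping groups. How reads were assigned between both models was not tested. Zfp935 alone did not pass the test (-0.23 ± 1.09), and without BRD0705/PD03 replicate 1 its sign turned.

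**Figure D4:**
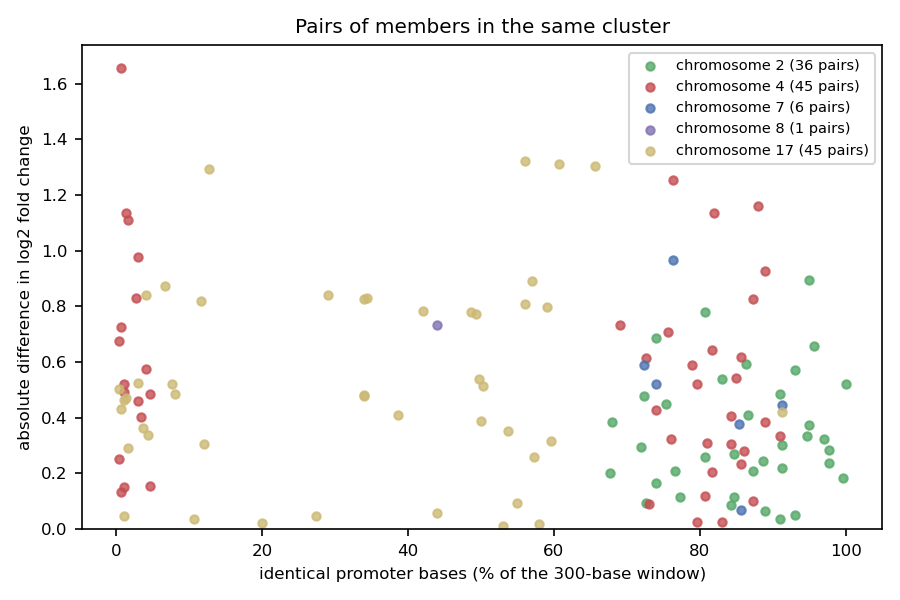
Each point is a pair of members of the same cluster, with the share of the 300-base promoter window that is identical on the x axis and the absolute difference of their log2 fold changes on the y axis. Pairs at 80% or more reach differences of 1.16, the pairs of chromosomes 2 and 7 all lie at 67.7% or more, and on chromosome 4 the pairs that include Zfp933 or Zfp993 lie near 0 while the others lie at 69.0% or more. Chromosome 4 pairs cover the 10 members with a promoter, and alignments had free end gaps, so unlike windows can score near 0.

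Within clusters, 48 pairs of tested members had promoters identical at 80% or more of bases, and their log2 fold changes differed by a median of 0.33 (0.02 to 1.16). The 85 less similar pairs of the same clusters differed by a median of 0.49 (0.01 to 1.65). Pairs share genes and reads, so these are descriptions. The classes also differ in cluster: 26 of 36 chromosome 2 pairs reached 80%, and 1 of 45 chromosome 17 pairs did. The median identity of pairs was 87.0% on chromosome 2, 80.8% on chromosome 7, 76.0% on chromosome 4 and 34.0% on chromosome 17. CpG dinucleotides, the sites of DNA methylation, numbered a median of 7.0 in the 54 member promoters and 7.0 in all 32851 RefSeq promoters. The median was 4.5 in the 10 promoters of the chromosome 4 cluster, 5.0 on chromosome 2 and 10.5 on chromosome 17.

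Letters known from factors of this culture system were looked for on both strands of 62 member promoters, with alternative starts included. The TCF/LEF core CTTTGAA was in 0 of them and in 5.14% of all promoters, and CTTTGAT was in 2 (Zfp938 and Zfp951) and in 3.73% of all. The ESRRB motif AAGGTCA was in 1 (Zfp993; 4.72% of all), the OTX2 core GGATTA in 6 (9.68%, against 7.06% of all) and the STAT motif TTCCNNGAA in 4 (6.45%, against 4.81% of all). The members with GGATTA were Zfp942, Zfp944, Zfp954, Zfp961, Zfp982 and Zfp985. A match describes the letters of the window only.

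Listed genes for silencing cofactors of KRAB zinc finger proteins and for related chromatin factors were more often higher than lower in BRD0705/PD03. Of the 27 genes 17 (63.0%) were higher and 4 (14.8%) lower (median 0.22), beside 30.1% and 31.4% of all genes, which include sparser ones. With a filter at a mean of at least 1 CPM, 23 of the 27 were called, beside 11041 of 16044 genes. The shifts were small, and 0 of the 27 were called at 2-fold or more. Trim28, the corepressor that binds KRAB domains, stood at 1915 ± 51.1 against 1411 ± 20.1 CPM (0.44 ± 0.04), and Setdb1 at 151 ± 4.68 against 139 ± 2.43 CPM (0.12 ± 0.04), a call lost without BRD0705/PD03 replicate 2. Genes of heterochromatin protein 1, which binds methylated H3K9, were higher (Cbx5 0.77 ± 0.04, Cbx1 0.70 ± 0.04 and Cbx3 0.27 ± 0.04; these 3 were chosen after their values were seen). Uhrf1, which guides the maintenance DNA methyltransferase to new DNA, was lower (635 ± 28.4 against 730.5 ± 38.02 CPM, -0.20 ± 0.05), and the transferase gene Dnmt1, at 434 ± 14.7 and 423 ± 2.47 CPM, was not called (edgeR, adjusted p = 0.466) but was called higher with upper-quartile factors (adjusted p = 0.0098). Atrx, chosen after its value was seen, was the lowest of the list at -0.88 ± 0.05. Atrx is X-linked, and X-linked genes as a whole had a median of -0.78 over 717 tested. Suv39h1, the other X-linked gene of the list, was not called (0.08 ± 0.09). The part of X linkage in these values was not tested.

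KRAB zinc finger genes with studied targets outside the series were 3 higher and 5 lower of 12 tested (median -0.20), and the 66.7% called is near the 61.4% of all genes. Zfp57, which protects methylation at imprinted regions, was lower at 189.9 ± 5.935 against 272 ± 7.23 CPM (-0.52 ± 0.04), and Zfp809, which silences murine leukemia viruses, at 44.5 ± 0.639 against 54.98 ± 1.69 CPM (-0.30 ± 0.05). Zfp445, which also protects imprints, was higher (0.51 ± 0.04), as was Zfp819 (0.76 ± 0.06), and the sparse Zfp708 had the lowest fold change of the list (-2.03 ± 0.27, at 0.749 ± 0.357 against 3.16 ± 0.417 CPM). These last 3 genes were chosen after their values were seen. Rex2, which lies within the chromosome 4 cluster, was not called (-0.09 ± 0.04, edgeR adjusted p = 0.0557), with 253 ± 4.60 CPM in BRD0705/PD03 and 269 ± 7.21 CPM in 2i, but was called lower without sex-chromosome genes (adjusted p = 0.034). The other Zfp genes of the tables were 114 higher and 111 lower of 322 tested (69.9% called, median 0.00035), and their summed level was 11403 ± 285 against 11111 ± 132 CPM.

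**Figure D5:**
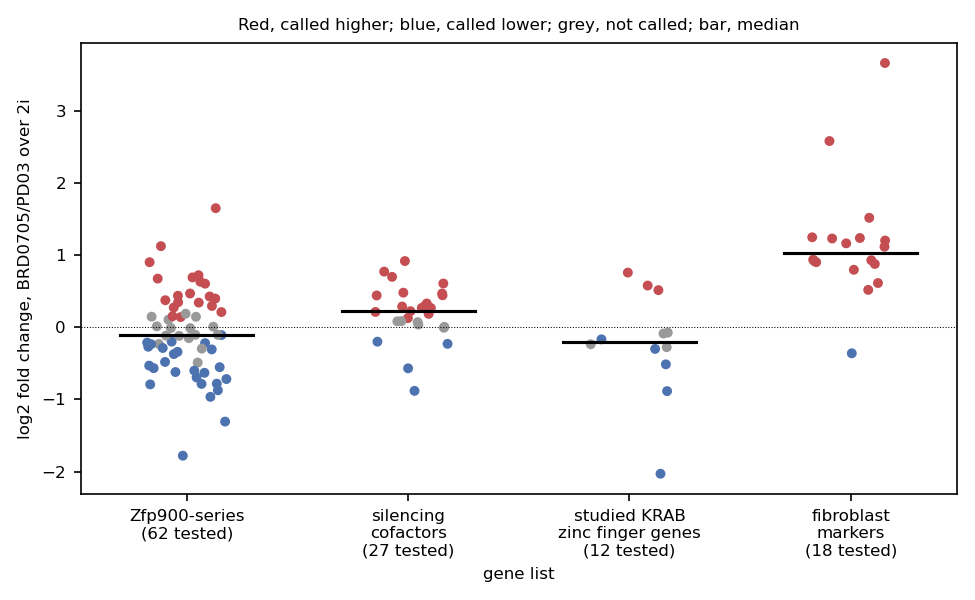
Log2 fold changes of the Zfp900-series genes, silencing cofactors, studied KRAB zinc finger genes and fibroblast markers; red points were called higher, blue lower, grey not called, and the bar is the median. The Zfp900-series points spread to both sides of 0 around a median of -0.11, and the cofactor median is 0.22.

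The growth protocol speaks of feeders, and markers of fibroblasts, a usual feeder type, differed between the media. All 18 fibroblast markers were called, 17 as higher and Sparc as lower (median 1.02), and their summed level was 1465 to 1984 CPM in BRD0705/PD03 and 1019 to 1070 CPM in 2i. None was at 0 in either group. Their part in the values of the members was not tested.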

How the data were processed

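Per the submitters' processing notes, the authors used Salmon and the build mm10. The deposited values are whole numbers per gene symbol, taken here as rounded estimated counts that were not scaled between libraries; not given in the sources used here are the annotation, strand use and summing to genes. Sample titles gave the groups and the replicate numbers. All 53927 symbols went into 1 fit with edgeR 4.0.16 in R 4.3.3 (filterByExpr, TMM, robust quasi-likelihood, group as the only term). The standard error is the log2 fold change over the square root of F. No pair of replicates matched within sampling noise (chi-square per degree of freedom 2.77 to 9.84). Positions came from GENCODE M21, in which 51945 symbols matched 1 gene, and promoters from RefSeq on GRCm38.p6, aligned in pairs with free end gaps. The steps were tested on simulated data. Members and lists were chosen with earlier results of these data known. Named members were Zfp932, Zfp982 and Zfp961, the 8 highest and 8 lowest called members without overlap at a mean of at least 1 CPM, and the 6 most abundant; no member had 3 counts or fewer in 1 group and many in the other. Further members are named by position or shared sequence, chosen after their values were seen. Alternatives were DESeq2 1.42.0, other scalings and filters, a test against a fold of 1.5, a replicate block, omission of sex-chromosome genes and leaving out each library.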

Additional observations from a re-analysis of the deposited data

How the results depend on the processing

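Of the 46 member calls, 38 kept their call and direction under every alternative other than the test against a fold of 1.5; the 8 that did not were Zfp945, Zfp952, Zfp963, Zfp971, Zfp973, Zfp986, Zfp990 and Zfp994, all with adjusted p over 0.02 by edgeR. Against a fold of 1.5, a stricter question by construction, 12 members were called (4 higher and 8 lower), among 5094 genes (2498 and 2596); the same test called 70 other Zfp genes, 4 cofactor genes, 3 studied KRAB zinc finger genes, 4 members as higher on chromosome 4 and 1 as lower on chromosome 2. Upper-quartile factors gave 23 higher and 21 lower members in place of 20 and 26, and 3 lower on chromosome 2; the cause was not tested. Leaving out single libraries gave 40 to 44 called members and 3 to 5 lower ones on chromosome 2, with 3 without 2i replicate 3. Zfp988, not called, turned from -0.01 (-0.033 without BRD0705/PD03 replicate 2) to 0.053 with upper-quartile factors, 0.0094 without a filter, 0.010 with a mean of at least 1 CPM, 0.018 without BRD0705/PD03 replicate 1, 0.0024 without 2i replicate 1 and 0.0097 without 2i replicate 2. Same-numbered libraries deviated from their group means with correlations of -0.0082, 0.034 and -0.036. These values show no common deviation by number, but they cannot exclude that same-numbered libraries were handled together. With the replicate block 43 members were called (19 higher and 24 lower). Standard errors were larger in low-count members, 0.45 for Zfp968 (mean 2.04 CPM) and 0.18 for Zfp963 (2.17 CPM), than in abundant ones, 0.04 for Zfp980 (351 CPM).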
